A study of Mus musculus with 32 samples.

Results

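Multipotent progenitors of the MPP3 type carrying 2 copies of the Cxcr4 1013 allele, written 1013/1013, were compared with wild-type (WT) MPP3. The 5 libraries were taken by their titles from the 32 of the series, 2 of MPP3 1013/1013 and 3 of MPP3 WT, and 18676 of the 30644 genes in the deposited table had enough counts to be tested. The 3 MPP3 libraries with 1 copy, +/1013, are given beside them. All came from bone marrow of the C57BL/6 strain per the labels, with no treatment, age or sex given in the sources used here. Each library was made from a pool of 3000 sorted cells, with 350 to 1000 pg of RNA and 12 PCR cycles of cDNA amplification. The labels do not say which libraries came from separate mice, so the p-values measure a spread between libraries that may be technical. That spread was estimated within the groups of all 32 libraries and not from the 5 alone.

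CXCR4 is the receptor for CXCL12, a chemokine that stromal cells of the marrow secrete and that holds stem and progenitor cells in their niches. The 1013 allele lacks part of the tail that the receptor has inside the cell, as in WHIM syndrome, so that the receptor is poorly switched off after it binds its ligand. MPP3 are short-lived progenitors that give rise mainly to granulocytes and monocytes, whereas MPP4 lean to lymphoid fates and MPP2 to platelets and red cells. The title of the series names mTOR and mitochondrial metabolism, so genes of these pathways are described beside genes of lineage, translation and the cell cycle.

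The MPP3 libraries held 26435953 to 33786917 counts, and Spearman correlations among the 5 compared libraries were 0.872 to 0.921. Levels are given as CPM (counts scaled to library size with TMM factors), which do not correct for gene length. The sorting markers fitted the label in part. Slamf1, which encodes CD150, a marker of MPP2, had no counts in either 1013/1013 library or in any WT library of MPP3. Flt3, the receptor that marks MPP4, had 170.4 and 75 CPM in 1013/1013 MPP3 and 91.7, 101 and 126 CPM in WT MPP3, against 335.2 to 561.3 CPM in WT MPP4. Cd48, present on MPP3, had 988 and 1022 CPM in 1013/1013 and 367, 860.1 and 689.6 CPM in WT. Of the antigens that mark the whole progenitor gate, Kit had 258 and 114 CPM in 1013/1013 and 246, 175 and 332 CPM in WT and overlapped. Ly6a, which encodes Sca-1, had 385 and 513 CPM in 1013/1013 and 268, 273 and 112 CPM in WT, without overlap, and Cd34 had 2478 and 2195 CPM in 1013/1013 and 2713, 2424 and 2022 CPM in WT. Among myeloid genes, Mpo, the peroxidase of neutrophil granules, had 1023 and 309 CPM in 1013/1013 and 135, 1063 and 1742 CPM in WT. Elane, the elastase of the same granules, had 217 and 14.8 CPM in 1013/1013 and 1.23, 116 and 1587 CPM in WT, and the Fc receptor gene Fcgr3 had 50.1 and 4.86 CPM in 1013/1013 and 3.09, 14.1 and 147 CPM in WT. Csf1r, the receptor of the monocyte growth factor, had no counts in 1013/1013 and 5.9, 0 and 0.0721 CPM in WT, so this myeloid marker was close to absent.

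The libraries stood apart in 3 ways that touch the results. WT 3 is one of 8 libraries of the series whose library number is a multiple of 3. S100a8, a neutrophil gene, had 3.16 and 28.6 CPM in 1013/1013 and 2.02, 2.74 and 436 CPM in WT, and Fos, an immediate-early gene, had 4709 and 4347 CPM in 1013/1013 and 4891, 4302 and 96.7 CPM in WT, the last value of each being WT 3. Sex-linked RNA was not balanced. Xist, the X-inactivation RNA, had 152 and 0.0338 CPM in 1013/1013 and 43.8, 224 and 381 CPM in WT. Of the Y-linked genes, Ddx3y had 1.81 and 39.3 CPM in 1013/1013 and 58.1, 0 and 0 CPM in WT, and Eif2s3y had 24.2 and 68.9 CPM in 1013/1013 and 83.4, 0 and 0 CPM in WT. Kdm5d had 4.38 and 5.53 CPM in 1013/1013 and 4.04, 0 and 0 CPM in WT, and Uty had 9.21 and 4.79 CPM in 1013/1013 and 38.2, 0 and 0 CPM in WT. The libraries 1013/1013 1 and WT 1 thus each held both Xist and Y-linked RNA. So did +/1013 1 and +/1013 2, with 118 and 58.9 CPM of Xist and 38.6 and 40.8 CPM of Ddx3y. Levels in 1013/1013 2 also followed transcript length. Its median log2 difference from the WT mean was 0.53 over the 264 genes of the shortest class, with a median length of 449 bases, and -0.36 over 852 genes with a median length of 3565 bases, against -0.17 and 0.02 in 1013/1013 1. The part of these features in the differences below was not tested, except where a value without a library is given.

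**Figure D1:**
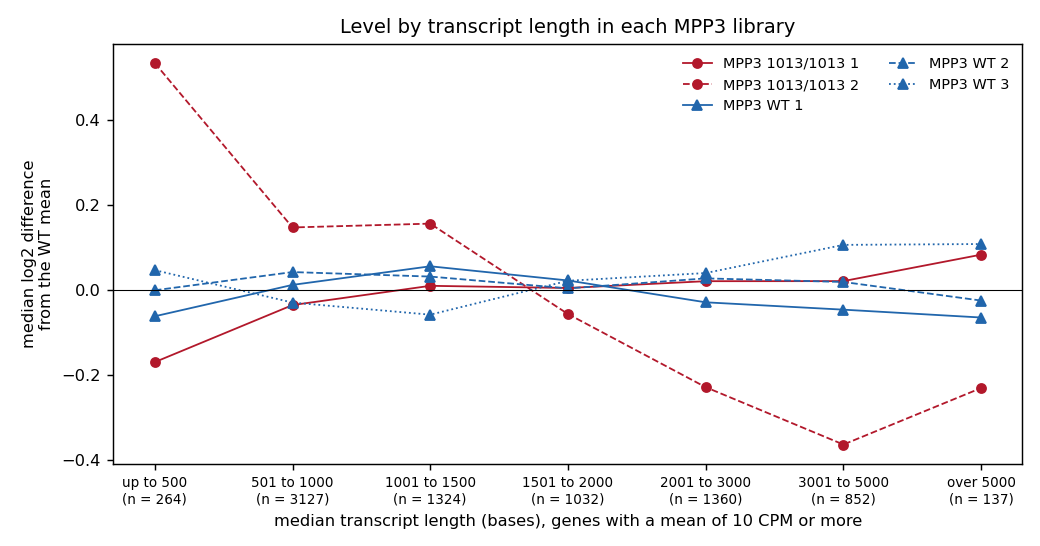
Median log2 difference from the WT mean by class of median transcript length in bases, over genes averaging 10 CPM or more, with 1 line for each library. The line of 1013/1013 2 runs from 0.53 in the shortest class to -0.36 in the class with a median of 3565 bases, while 1013/1013 1 stays between -0.17 and 0.08 and the WT libraries between -0.07 and 0.11.

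No gene passed the test between MPP3 1013/1013 and MPP3 WT. In edgeR's quasi-likelihood test with Benjamini-Hochberg adjustment, 0 of 18676 genes (0%) had an adjusted p under 0.05, and the lowest was 0.814. Before adjustment, 778 genes had a p under 0.05, 468 higher (2.51%) and 310 lower (1.66%) in 1013/1013. DESeq2 called 269 of the 18276 genes to which it gave an adjusted p, 99 higher (0.542%) and 170 lower (0.93%), and limma-voom called 23 (0.123%), with 10 genes shared. In 182 of the 269 DESeq2 calls the libraries of the genotypes overlapped, and 25 of the 269 averaged at least 10 CPM, 4 higher and 21 lower. With 2 libraries against 3, an exact two-sided permutation test of 1 gene cannot go below 0.1. The genes below are therefore described by their values. On each side the 12 of lowest unadjusted p are named, among genes whose libraries did not overlap. That was so for 8.24% of tested genes on the higher side and 6.51% on the lower. With 2 libraries against 3, some genes have no overlap by arrangement alone, and these shares were not tested against that.

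Cxcr4 itself (chr1:128588199-128592293, mm10) had 35 and 35.6 CPM in 1013/1013 MPP3, 16.4, 26.2 and 84.3 CPM in +/1013 MPP3 and 7.32, 24.6 and 50.8 CPM in WT MPP3. Both 1013/1013 libraries lay inside the WT range. The log2 difference from WT was 0.36 (SE 0.74, edgeR adjusted p = 1), and it was -0.09 without WT 1 and 1.15 without WT 3. In MPP1, Cxcr4 averaged 47.6 ± 15.8 CPM in 1013/1013 and 21.9 ± 4.77 CPM in WT (SD, n = 2 and 3, as in the pairs that follow). In MPP2 it averaged 86.1 ± 22.9 CPM in 1013/1013 and 29.2 ± 0.586 CPM in WT. The genotypes did not overlap in these subsets. They overlapped in MPP4, with 96.6 ± 51 CPM in 1013/1013 and 51.6 ± 53.4 CPM in WT. These gene counts do not separate the 1013 transcript from the normal one.

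Dars had the lowest unadjusted p of the genes lower in 1013/1013. It encodes the cytoplasmic aspartyl-tRNA synthetase, which loads aspartate onto its tRNA for protein synthesis, and it lies 0.171 Mb from Cxcr4 (chr1:128363707-128417368, mm10). Dars had 515 and 549 CPM in 1013/1013, 800.3, 789 and 941 CPM in +/1013 and 1111, 979 and 1026 CPM in WT. The 3 genotypes did not overlap, with 1013/1013 the lowest. The log2 difference between 1013/1013 and WT was -0.97 (SE 0.20, edgeR adjusted p = 0.814), and -1.01 to -0.91 with each of the 5 libraries left out in turn. DESeq2 gave an adjusted p of 9.28e-05 and limma-voom 0.0195.

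Ctse, the gene of cathepsin E, an aspartic protease, lies 3.05 Mb from Cxcr4 on its other side (chr1:131638306-131675505, mm10). It had 744 and 276 CPM in 1013/1013, 158, 323 and 165 CPM in +/1013 and 16.1, 20.7 and 79.4 CPM in WT. Every library with a 1013 allele was above every WT library, while 1013/1013 and +/1013 overlapped. The mean was 510.5 ± 331 CPM in 1013/1013 and 38.7 ± 35.3 CPM in WT (SD, n = 2 and 3), with a log2 difference of 3.72 (SE 0.81, edgeR adjusted p = 0.814, DESeq2 adjusted p = 0.000177). It was 2.82 without 1013/1013 1 and 4.79 without WT 3.

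B2m encodes beta-2 microglobulin, the small subunit that MHC class I molecules need to reach the cell surface. It had 2811 and 3333 CPM in 1013/1013, 2310, 2541 and 2568 CPM in +/1013 and 1527, 2037 and 1860 CPM in WT. Here too the 3 genotypes did not overlap, with 1013/1013 the highest. The log2 difference between 1013/1013 and WT was 0.76 (SE 0.20, edgeR adjusted p = 0.973, DESeq2 adjusted p = 0.0209), and 0.65 to 0.87 with each library left out. Of the 12 higher genes it had the highest level and the smallest log2 difference. Tap1, the peptide transporter of the MHC class I pathway, was on the other side, with 259.9 and 159 CPM in 1013/1013 and 336, 275 and 371 CPM in WT, and was chosen after its values were seen.

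The promoters of Cxcr4, as the mutated locus, and of Dars and B2m, as named genes whose 3 genotypes stood in order, are shown for the 250 bases before the annotated start, 5′ to 3′ on the strand of the gene (RefSeq, GRCm38.p6). Capitals mark matches to a pair of motifs searched on both strands, the palindromic core bound by NRF1, whose letters are the capitals in Cxcr4, and the spaced GAAA repeat bound by interferon regulatory factors, with any 2 bases between the copies, whose match is the capitals in B2m. The windows are chr1:128592300-128592549 (minus strand), chr1:128417417-128417666 (minus strand) and chr2:122147437-122147686 (plus strand).
Cxcr4: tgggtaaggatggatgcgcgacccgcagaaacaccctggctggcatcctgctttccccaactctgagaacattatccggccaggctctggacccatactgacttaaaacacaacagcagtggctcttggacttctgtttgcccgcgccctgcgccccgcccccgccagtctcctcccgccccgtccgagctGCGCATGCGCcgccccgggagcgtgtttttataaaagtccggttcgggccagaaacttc
Dars: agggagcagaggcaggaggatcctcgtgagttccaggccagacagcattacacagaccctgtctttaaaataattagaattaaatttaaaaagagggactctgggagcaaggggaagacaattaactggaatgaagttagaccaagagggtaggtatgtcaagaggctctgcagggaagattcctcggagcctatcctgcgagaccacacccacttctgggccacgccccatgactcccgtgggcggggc
B2m: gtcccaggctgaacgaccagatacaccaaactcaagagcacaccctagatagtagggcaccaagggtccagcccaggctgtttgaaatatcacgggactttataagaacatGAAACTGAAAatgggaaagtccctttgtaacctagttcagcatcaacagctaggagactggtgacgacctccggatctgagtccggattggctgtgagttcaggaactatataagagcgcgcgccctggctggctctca
The NRF1 core is in the Cxcr4 window and in 0.782% of the 32851 windows of the same length in the table. The interferon-type repeat is in the B2m window and in 2.98% of all windows. Neither is in the Dars window, which says only that these letters do not occur there.

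Most other genes on the higher side were of low level. Atrx, a chromatin remodeller encoded on the X chromosome, had 25.8 and 23.6 CPM in 1013/1013, 9.67, 21.3 and 14.8 CPM in +/1013 and 2.15, 1.18 and 4.36 CPM in WT. The 3 genotypes did not overlap, with a log2 difference between 1013/1013 and WT of 3.26 (SE 0.69, edgeR adjusted p = 0.814), and 2.92 to 3.89 with each library left out. A further 4 genes had no counts in WT, so that their folds are lower bounds on a floor of 3 counts per library. The floor covers counting error only and not the spread between libraries. Within a group a weak gene can lack counts in single libraries, as Awat2 did in +/1013 MPP2, with 10.1, 10.9 and 0 CPM. Hepacam2, an adhesion protein of the immunoglobulin family, had 12.6 and 4.05 CPM in 1013/1013 and 2.77, 6.29 and 14.2 CPM in +/1013, and was at least 78.8-fold higher in 1013/1013 than in WT. Awat2, an acyltransferase that makes wax esters, had 5.07 and 13.2 CPM in 1013/1013 and 6.71, 7.08 and 5.26 CPM in +/1013, and was at least 86.6-fold higher in 1013/1013 than in WT. In both genes every +/1013 library also had counts. Tmtc1, a mannosyltransferase of the endoplasmic reticulum, had 1.53 and 8.5 CPM in 1013/1013 and no counts in +/1013, and was at least 47.5-fold higher in 1013/1013 than in WT. Bcorl1, an X-linked corepressor, had 2.85 and 2.26 CPM in 1013/1013 and 0.261, 0.363 and 1.35 CPM in +/1013, and was at least 24.2-fold higher in 1013/1013 than in WT.

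Of the remaining higher genes, Fam122a and Tpra1 were the better expressed. Fam122a, an inhibitor of the phosphatase PP2A, had 80.1 and 94.9 CPM in 1013/1013, 65.7, 58.5 and 63.9 CPM in +/1013 and 39.4, 39.5 and 42.6 CPM in WT (log2 1.11, SE 0.34). Tpra1, a membrane protein, had 114 and 104 CPM in 1013/1013, 61.1, 82.7 and 75 CPM in +/1013 and 58.8, 55.5 and 21.9 CPM in WT. Both stood in the order of the 3 genotypes. Gpatch8, a G-patch domain protein, had 15.2 and 8.37 CPM in 1013/1013 and 2.37, 0.0381 and 0.325 CPM in WT. Htt, which encodes huntingtin, had 2.57 and 9.79 CPM in 1013/1013 and 0.126, 0.266 and 0.108 CPM in WT. Jcad, a protein of endothelial cell junctions, had 2.75 and 6.21 CPM in 1013/1013 and 0, 0.0381 and 0 CPM in WT. In +/1013, Gpatch8 had 4.62, 2.27 and 1.22 CPM, Htt 0.326, 9.32 and 2.3 CPM and Jcad 1.3, 0.151 and 2.86 CPM. Of the 12 higher genes, 7 averaged under 10 CPM, 8 were called by DESeq2 and 4 by limma-voom, and none by edgeR's test.

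**Figure D2:**
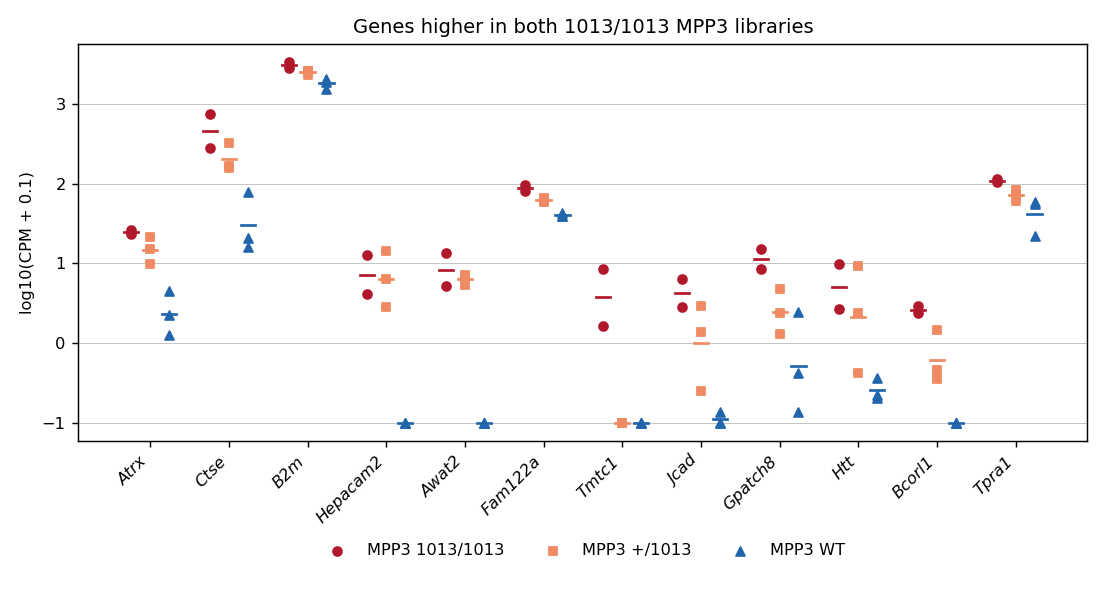
Level of the 12 named genes on the higher side as log10(CPM + 0.1), with 1 point for each MPP3 library of 1013/1013, +/1013 and WT and a bar at the mean of the log values. Both 1013/1013 points lie above all 3 WT points in every gene, as the choice of genes required, and points at the bottom of the scale have no counts.

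The genes on the lower side were better expressed, and DESeq2 called all 12. Gart, a trifunctional enzyme of purine synthesis, had 249.7 and 230 CPM in 1013/1013, 394, 369 and 399 CPM in +/1013 and 383, 436 and 441 CPM in WT. The 1013/1013 libraries lay below the 6 others, with a log2 difference from WT of -0.81 (SE 0.22, edgeR adjusted p = 0.973, DESeq2 adjusted p = 0.0113), and -0.89 to -0.74 with each library left out. Grb10, an imprinted adaptor that restrains insulin and growth factor receptors, had no counts in 1013/1013, 16, 0.938 and 1.68 CPM in +/1013 and 3.31, 18 and 22.3 CPM in WT, at least 142-fold lower in 1013/1013 than in WT. Rab34, a GTPase of vesicle traffic and cilium formation, also had no counts in 1013/1013, with 9.997, 4.87 and 5.65 CPM in +/1013 and 7.54, 3.27 and 3.93 CPM in WT, at least 47.8-fold lower in 1013/1013 than in WT. In these 3 genes +/1013 and WT overlapped. The folds of Grb10 and Rab34 rest on the same floor, and Rab34 had 4.93 and 0 CPM in the 1013/1013 libraries of MPP2.

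Several of the other lower genes act on RNA or in mitosis. Pus10, a pseudouridine synthase, had 29.4 and 40.6 CPM in 1013/1013 and 118, 168 and 65 CPM in WT (log2 -1.74). Eri1, an exonuclease that trims histone mRNA and ribosomal RNA, had 63.9 and 61.5 CPM in 1013/1013 and 111, 121 and 165 CPM in WT (log2 -1.08). Zc3h7a, a zinc finger protein, had 8.55 and 9.08 CPM in 1013/1013 and 42.1, 25.3 and 21.2 CPM in WT (log2 -1.74). In all 3 genes the 1013/1013 libraries were closer to each other than the WT libraries were. Between +/1013 and WT the log2 difference was -0.35 for Pus10, 0.11 for Eri1 and 0.06 for Zc3h7a. Haus6, a subunit of the augmin complex that seeds spindle microtubules, had 12.2 and 1.38 CPM in 1013/1013, 31, 32.8 and 46.2 CPM in +/1013 and 25.2, 33.4 and 32.3 CPM in WT. Its log2 difference was -2.15, -1.29 without 1013/1013 2, and -4.46 without 1013/1013 1 (edgeR adjusted p = 0.0105). That last fit has 1 library of 1013/1013 MPP3, which is assumed to vary like the other groups.

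The last 4 lower genes serve trafficking, folding, turnover and transport. Fam91a1, which tethers vesicles at the Golgi, had 24 and 16.3 CPM in 1013/1013 and 96.8, 55.4 and 103 CPM in WT (log2 -2.08). Dnajc14, a chaperone of the endoplasmic reticulum, had 32.7 and 26.1 CPM in 1013/1013 and 50.8, 69.3 and 81.4 CPM in WT (log2 -1.19). Slc25a15, the mitochondrial ornithine carrier, had 44.7 and 22.5 CPM in 1013/1013, 62.1, 46.9 and 84.7 CPM in +/1013 and 96.6, 104 and 93.4 CPM in WT (log2 -1.54). Its 3 genotypes stood in order, as for Dars. Fem1b, a substrate receptor of a ubiquitin ligase, had 45.2 and 27.4 CPM in 1013/1013 and 62.3, 90.9 and 112 CPM in WT (log2 -1.28). Between +/1013 and WT the log2 difference was 0.22 for Fam91a1, -0.01 for Dnajc14 and -0.60 for Fem1b. Of the 12 lower genes, 5 have long median transcripts, with 2144 bases for Dars, 2298 for Dnajc14, 3246 for Gart, 3930 for Slc25a15 and 6785 for Fem1b. Classes of such lengths had medians of -0.36 to -0.23 in 1013/1013 2.

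**Figure D3:**
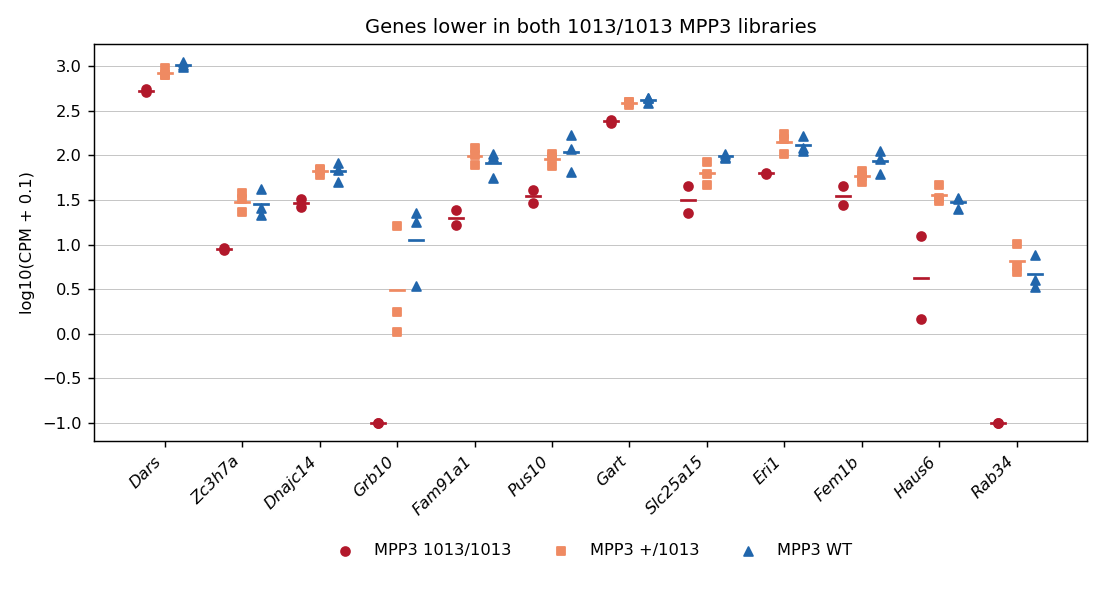
Level of the 12 named genes on the lower side as log10(CPM + 0.1), with 1 point for each MPP3 library of 1013/1013, +/1013 and WT and a bar at the mean of the log values. Both 1013/1013 points lie below all 3 WT points in every gene, as the choice of genes required, and Grb10 and Rab34 have no counts in 1013/1013.

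Few genes had a full order of the 3 genotypes. With 2, 3 and 3 libraries a small share of genes falls in order by arrangement alone, and the shares below were not tested against it. The order is thus given as a description of single genes and not as an effect of allele number. Of all 18676 tested genes, 35 (0.187%) had 1013/1013 above +/1013 above WT with no overlap between neighbours, and 26 (0.139%) had the reverse. Among the 8096 genes that averaged 10 CPM or more, the counts were 20 and 20 (0.247% each). In these 8096, Atrx, B2m, Fam122a and Tpra1 had the first order and Dars and Slc25a15 the reverse. Between 1013/1013 and +/1013, edgeR called 0 genes (0%), with 225 higher (1.2%) and 249 lower (1.33%) at a p under 0.05 before adjustment. DESeq2 called 30 higher (0.164%) and 161 lower (0.881%) there, and limma-voom 15 (0.0803%). Between +/1013 and WT, edgeR also called 0 (0%), with 429 higher (2.3%) and 195 lower (1.04%) in +/1013 at a p under 0.05 before adjustment. DESeq2 called 140 higher (0.782%) and 54 lower (0.301%) there, and limma-voom 17 (0.091%).

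The same genotypes were sorted as MPP1, MPP2 and MPP4. The rule of no overlap did not use these libraries, but they entered the fit whose p-values ranked the genes. Ctse was named with earlier results of these data known. Dars averaged 477 ± 71.6 CPM in 1013/1013 MPP1 and 861 ± 106 CPM in WT MPP1 (SD, n = 2 and 3, as in the pairs that follow). It averaged 663 ± 206 CPM in 1013/1013 MPP2 and 1145 ± 131 CPM in WT MPP2, and 642 ± 109 CPM in 1013/1013 MPP4 and 891 ± 53.6 CPM in WT MPP4. In each subset every 1013/1013 library was below every WT library. Ctse averaged 814 ± 154 CPM in 1013/1013 MPP1 and 16.6 ± 8.55 CPM in WT MPP1, and its genotypes did not overlap in MPP2 or MPP4 either. Gart averaged 223 ± 32 CPM in 1013/1013 MPP1 and 389.6 ± 13.3 CPM in WT MPP1, and 275 ± 89.8 CPM in 1013/1013 MPP4 and 436 ± 4.54 CPM in WT MPP4. B2m averaged 2947 ± 235 CPM in 1013/1013 MPP4 and 2005 ± 348 CPM in WT MPP4. Gart and B2m overlapped in MPP2 and not in MPP1 or MPP4. Awat2, higher in 1013/1013, and Fam91a1, lower, also had no overlap in MPP1, MPP2 or MPP4. The gaps in MPP4 were narrow. Awat2 had 11.43 and 7.898 CPM in 1013/1013 MPP4 and at most 6.031 CPM in WT MPP4. Fam91a1 had 109.6 and 92.85 CPM in 1013/1013 MPP4 and at least 110.5 CPM in WT MPP4.

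Of the 12 higher genes, 8, 6 and 7 had a positive fitted difference between 1013/1013 and WT in MPP1, MPP2 and MPP4, where 49%, 43.7% and 42.7% of 12545 genes averaging 1 CPM or more had one. Of the 12 lower genes, 9, 11 and 10 had a negative one, where 49.4%, 55.3% and 56.3% of genes had one. The labels do not say whether the subsets came from the same mice, so they need not be independent.

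**Figure D4:**
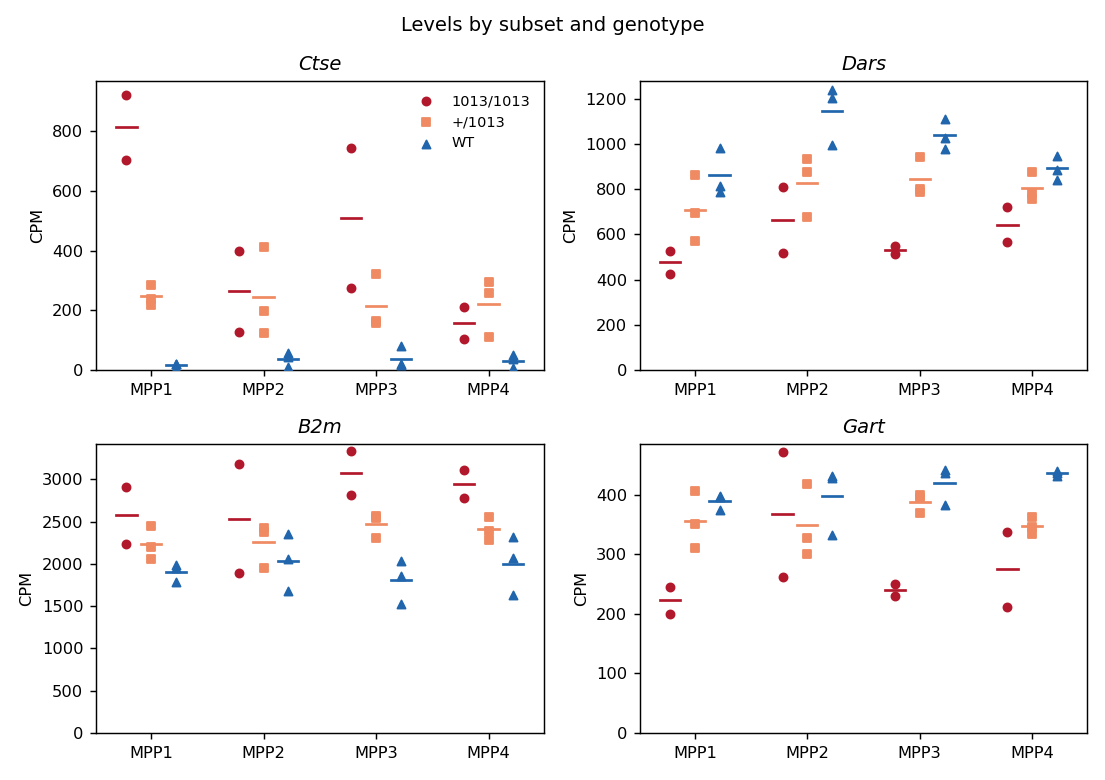
Level in CPM of Ctse, Dars, B2m and Gart in MPP1 to MPP4 by genotype, with 1 point for each library and a bar at the mean. Dars is lower and Ctse higher in 1013/1013 than in WT without overlap in all 4 subsets, and B2m and Gart overlap in MPP2.

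Whether the 1013/1013 difference in MPP3 departs from the mean of that in MPP1, MPP2 and MPP4 was tested across all genes, and 1 of 18676 (0.00535%) passed. That gene was Rcor3, a corepressor that works with the histone demethylase LSD1 (log2 4.17, SE 0.67, edgeR adjusted p = 0.04), where the median of all genes was 0.18. The call was lost with a replicate block (adjusted p = 0.112) and with each term for library number or Ddx3y (0.0651 to 0.0744). In MPP3 it had 19.8 and 19.6 CPM in 1013/1013 and 8.77, 19.8 and 6.89 CPM in WT, which overlap. It averaged 25.8 ± 2.15 CPM in 1013/1013 MPP1 and 23.4 ± 9.97 CPM in WT MPP1 (SD, n = 2 and 3, as in the next pair). It averaged 5.83 ± 1.16 CPM in 1013/1013 MPP2 and 19.4 ± 4.46 CPM in WT MPP2. In MPP4 it had 0 and 0.0376 CPM in 1013/1013 and averaged 10.9 ± 4.19 CPM in WT. The level was thus low in 1013/1013 MPP2 and MPP4 and not in 1013/1013 MPP1, and the adjusted p was 0.39 without MPP3 WT 3. Before adjustment, 886 genes had a p under 0.05, 697 positive (3.73%) and 189 negative (1.01%), and DESeq2 called 307, 214 positive (1.38%) and 93 negative (0.6%), and limma-voom 15 (0.0803%).

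Gene lists are described by counts and medians of the log2 difference between 1013/1013 and WT, beside a median of 0 over all tested genes and 0.0149 over those of at least 10 CPM. No member of any list passed edgeR's test. Among genes of at least 10 CPM, 7.91% were higher and 10.4% lower in 1013/1013 without overlap. Members named are among the 4 of highest level in their list, and any other was chosen after its values were seen, for its role or because its libraries did not overlap.

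Of the 17 aminoacyl-tRNA synthetases listed and tested, 15 had a negative difference, with a median of -0.46, and 5 (29.4%) were lower without overlap. These counts include Dars, named above for its low p. Without Dars, 14 of 16 were negative, with a median of -0.45, and 4 (25%) were lower without overlap. Nars, for asparagine, had 191 and 107 CPM in 1013/1013 and 209, 275 and 231 CPM in WT. Rars, for arginine, had 112 and 119 CPM in 1013/1013 and 127, 178 and 246 CPM in WT, and Wars, for tryptophan, had 58.5 and 46.5 CPM in 1013/1013 and 64.9, 77.2 and 125 CPM in WT. Qars, for glutamine, had 104 and 85.8 CPM in 1013/1013 and 119, 116 and 120 CPM in WT. Mars and Sars, for methionine and serine, overlapped, with 199 and 178 CPM of Mars in 1013/1013 and 175, 356 and 238 CPM in WT. Without Dars the summed level of the list was 1743 and 1205 CPM in 1013/1013 and 1444, 2295 and 2164 CPM in WT, so the genotypes overlapped. With Dars the median was -0.77 to -0.29 with each library left out. The list does not hold every synthetase, and those outside it were not counted. Eprs and Farsb, synthetases outside the list, were higher in 1013/1013 without overlap and were chosen after their values were seen. Eprs had 42.8 and 35.6 CPM in 1013/1013 and 24.3, 22.7 and 12.2 CPM in WT, and Farsb had a log2 difference of 0.24.

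Ribosome biogenesis and Myc target genes had a median of -0.14, with 8 of 39 (20.5%), Gart among them, lower and 3 higher without overlap, and medians of -0.42 to -0.07 with each library left out. Enzymes of nucleotide and polyamine synthesis went both ways. Ppat, which opens purine synthesis, had 119 and 121 CPM in 1013/1013 and 224, 206 and 184 CPM in WT. Odc1, the ornithine decarboxylase, had 248 and 328 CPM in 1013/1013 and 356, 403 and 399 CPM in WT. Paics, a further purine enzyme, overlapped, with 911 and 967 CPM in 1013/1013 and 952, 1019 and 819.9 CPM in WT. Cad, which opens pyrimidine synthesis, was higher in 1013/1013 without overlap, with 52.5 and 67 CPM in 1013/1013 and 17.2, 19 and 7.1 CPM in WT.

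Cytosolic ribosomal protein genes had a positive difference in 81 of 83, with a median of 0.44, but the 1013/1013 libraries lay on opposite sides of WT. Their summed level was 23950 and 51160 CPM in 1013/1013 and 26240, 29010 and 30990 CPM in WT. The median was 0.91 without 1013/1013 1 and -0.33 without 1013/1013 2. Rplp0, of the ribosomal stalk, had 2361 and 4325 CPM in 1013/1013 and 2786, 2989 and 2713 CPM in WT, and 3 of the 83 (3.61%) had no overlap. The transcripts of this list are short, with a median of 628.5 bases, and the class of genes with a median length of 749 bases had a median difference of 0.15 in 1013/1013 2.

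Nuclear genes of the respiratory chain had the same split. For complex I the median was 0.32, with 0.68 without 1013/1013 1 and -0.18 without 1013/1013 2. For complexes II to V it was 0.34, with 0.75 without 1013/1013 1 and -0.33 without 1013/1013 2. Mitochondrial ribosomal protein genes had 0.26, with 0.60 without 1013/1013 1 and -0.14 without 1013/1013 2. Single subunits without overlap went each way. Atp5b, a catalytic subunit of ATP synthase, had 3616 and 4072 CPM in 1013/1013 and 4819, 4859 and 4255 CPM in WT, and Atp5a1, its partner, had 1799 and 2201 CPM in 1013/1013 and 2572, 2315 and 2504 CPM in WT. Ndufs1, an iron-sulfur subunit of complex I, had 90.4 and 59.5 CPM in 1013/1013 and 107, 144 and 117 CPM in WT. Atp5d, the delta subunit of ATP synthase, was higher, with 356 and 506 CPM in 1013/1013 and 249, 326 and 271 CPM in WT.

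The mRNAs encoded in mitochondrial DNA had positive differences in all 10 tested, with a median of 0.68. Their summed level was 12180 and 20210 CPM in 1013/1013, 8592, 8014 and 17550 CPM in +/1013 and 9283, 8832 and 13280 CPM in WT, so 1013/1013 1 lay below WT 3. The median was 0.34 without 1013/1013 2 and 1.15 without WT 3. Of the 10, 2 (20%) had no overlap, among them mt-Nd1, a core subunit of complex I, with 1101 and 1263 CPM in 1013/1013 and 501.1, 739 and 972 CPM in WT.

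The 47 mTOR pathway components had a median of 0.17, which was -0.06 without 1013/1013 1 and -0.10 without 1013/1013 2, with 5 higher and 5 lower (10.6% each) without overlap. Both activators and restrainers of mTORC1 were among them. Sesn1, a sestrin that restrains mTORC1, had 166 and 178 CPM in 1013/1013 and 324, 223 and 515 CPM in WT. Akt1, the kinase upstream of mTORC1, had 198 and 106 CPM in 1013/1013 and 242, 214 and 218 CPM in WT, and Rictor, the defining subunit of mTORC2, had 45.7 and 28.4 CPM in 1013/1013 and 75.3, 48.7 and 51.2 CPM in WT. Nprl3, a subunit of GATOR1, which restrains mTORC1, was higher, with 45.6 and 41.1 CPM in 1013/1013 and 19.6, 15.3 and 7.9 CPM in WT. Rheb, the GTPase that activates mTORC1, overlapped. Glycolysis and tricarboxylic acid cycle genes had a median of -0.11, with 2 of 38 higher and 3 lower without overlap. Mdh1, the cytosolic malate dehydrogenase, had 1086 and 1002 CPM in 1013/1013 and 860.1, 792 and 679 CPM in WT.

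**Figure D5:**
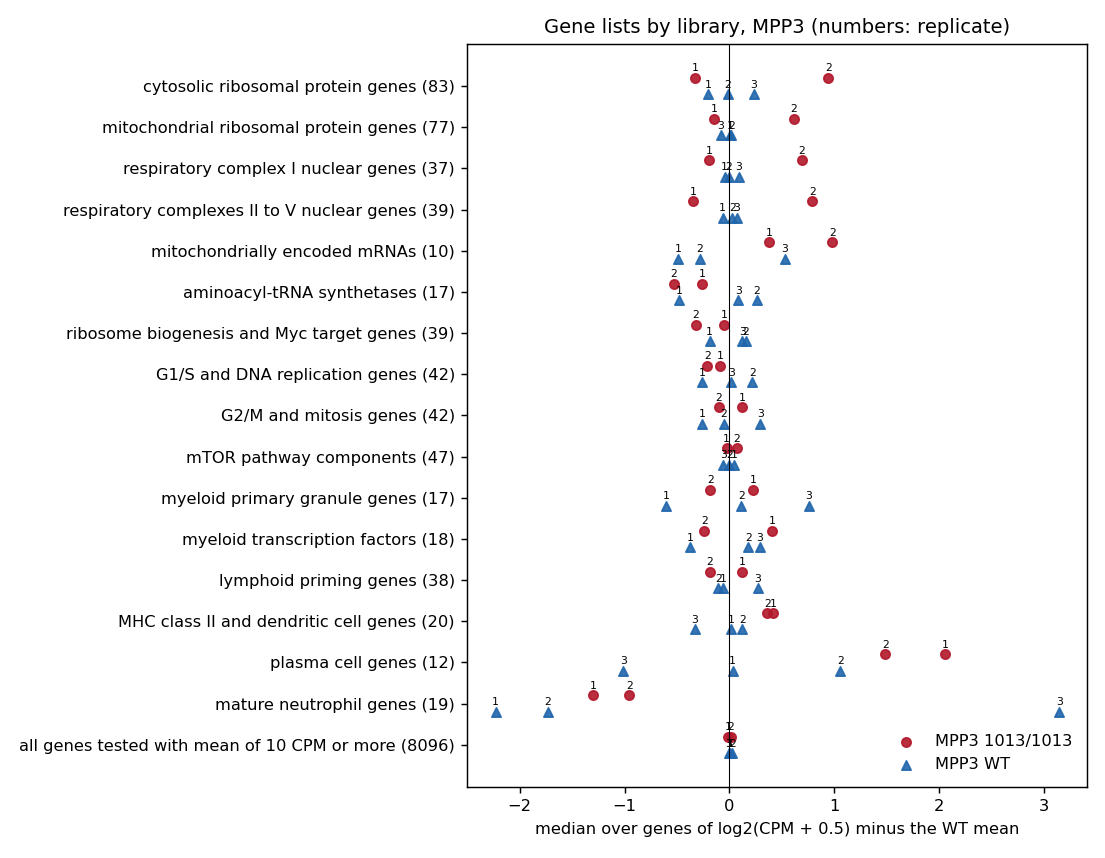
Median over the tested members of each list of log2(CPM + 0.5) minus the WT mean, for each MPP3 library of 1013/1013 and WT, with the number of members in brackets. The 1013/1013 libraries lie on opposite sides of 0 for cytosolic ribosomal protein genes (-0.33 and 0.95) and on the same side for the synthetases (-0.26 and -0.53, with WT 1 between them at -0.48) and plasma cell genes (2.06 and 1.49).

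Cell cycle lists had medians near 0 whose sign changed when single libraries were left out. Of 42 G1/S and replication genes, 5 (11.9%) were lower and 1 higher without overlap. Mcm5, of the replicative helicase, had 636 and 534 CPM in 1013/1013 and 757, 1056 and 919.8 CPM in WT. E2f1, a transcription factor of S phase entry, had 77.1 and 94.4 CPM in 1013/1013 and 112, 179 and 131 CPM in WT. Of 42 G2/M genes, 5 (11.9%) were higher and 1 lower. Mki67, the proliferation antigen, had 6.36 and 4.89 CPM in 1013/1013 and 0.473, 0.304 and 0.938 CPM in WT, while Cdk1, the mitotic kinase, overlapped. Among p53 targets, Ccng1, which encodes cyclin G1, had 87.7 and 72.5 CPM in 1013/1013, 105, 116 and 109 CPM in +/1013 and 157, 118 and 139 CPM in WT, in the order of the genotypes.

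Myeloid identity genes had no common direction. The 17 primary granule genes had a median of -0.27, which was 0.37 without WT 3, although 3 (17.6%) were higher and 0 lower in 1013/1013 without overlap. Srgn, the proteoglycan of granules, was one, with 2076 and 2911 CPM in 1013/1013 and 1761, 1953 and 1714 CPM in WT, and the others were Gstm1 and Nkg7. None of the 18 myeloid transcription factors (0%) was free of overlap. Spi1, which encodes PU.1, had 209 and 129 CPM in 1013/1013 and 119.9, 173 and 181 CPM in WT. Lymphoid priming genes diverged within their list, with 5 of 38 (13.2%) higher and 3 lower without overlap. Dntt, the polymerase that adds bases at antigen receptor joints, had 193 and 72 CPM in 1013/1013 and 280.5, 244 and 260.4 CPM in WT. Ly6d, a surface marker of early B lineage cells, had 112 and 78.3 CPM in 1013/1013 and 27.2, 41.2 and 22.7 CPM in WT. The MHC class II and dendritic cell list had a median of 0.39, or 0.52 with genes of groups without counts at their bound. Of its 20 genes, 5 (25%) were higher and 1 (5%) lower without overlap, and DESeq2 called 0 higher and 2 lower. H2-Eb1, a class II beta chain, had 35 and 64.3 CPM in 1013/1013 and 24.9, 15.9 and 7.68 CPM in WT. Cd74, the invariant chain, overlapped, with 420.3 and 61.7 CPM in 1013/1013, 92.8, 434 and 54.7 CPM in +/1013 and 38.9, 63.4 and 24 CPM in WT.

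RNA of mature cells was present to differing degrees. The 12 plasma cell genes had a median of 1.36, and 7 (58.3%) were higher in 1013/1013 without overlap. Their summed level was 19880 and 6225 CPM in 1013/1013, 3871, 16530 and 8203 CPM in +/1013 and 2877, 6137 and 927 CPM in WT. Jchain, which joins antibody subunits, had 18170 and 5510 CPM in 1013/1013 and 2206, 5407 and 492 CPM in WT. The libraries with the highest sums, +/1013 2 and 1013/1013 1, were also those with the most Cd74, and the part of plasma cell RNA in that value was not tested. Mzb1, a chaperone of antibody secretion, had 289 and 94.2 CPM in 1013/1013 and 18.8, 38 and 15.8 CPM in WT. Mature neutrophil and hemoglobin genes had medians of -3.63 and -3.99, which were 0.10 and 0.94 without WT 3. In bulk RNA, fewer cells of a type and less RNA per cell cannot be told apart.

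Around the Cxcr4 locus, 99 protein-coding genes within 10 Mb were tested, with a median log2 difference of 0. Of these, 14 (14.1%), Ctse among them, were higher and 7 (7.07%), Dars among them, lower in 1013/1013 without overlap. Tmem163, a zinc transporter gene 0.909 Mb from Cxcr4, had 7.44 and 7.15 CPM in 1013/1013, 0, 3.15 and 0 CPM in +/1013 and no counts in WT. Csrp1, a LIM domain protein gene, had 369 and 391 CPM in 1013/1013, 333, 346 and 322 CPM in +/1013 and 269, 291 and 298 CPM in WT, in the order of the genotypes. Actr3, a core subunit of the Arp2/3 actin nucleator, had 985 and 879 CPM in 1013/1013 and 1119, 1111 and 1097 CPM in WT. Effects of the allele and of sequence linked to it cannot be told apart in this design. Among 43 genes of CXCR4 signalling, 5 (11.6%) were higher and 1 lower without overlap. Rac1, a GTPase of cell movement, had 861 and 652 CPM in 1013/1013 and 523, 624 and 554 CPM in WT, and its relative Rac2 had 907 and 729 CPM in 1013/1013 and 514, 669.9 and 457 CPM in WT.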

How the data were processed

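RNA from sorted MPP3 was read as the deposited raw counts per gene, 1 column per library. The deposited table also gave gene positions and the median transcript length in bases. Per the submitters' processing notes, STAR and HTSeq were used with mm10. Versions and strand setting are not given in the sources used here, so reads of a gene and of an antisense neighbour cannot be told apart. The 64 other per-sample columns were not used. The fit took all 32 libraries in 12 groups and used edgeR 4.0.16 under R 4.3.3 (filterByExpr, TMM, trended dispersion, quasi-likelihood F-test), with 20 residual degrees of freedom and a median dispersion of 1.23, and p-values were adjusted over 18676 genes at 0.05. Each SE was derived from the log2 difference and the F statistic (absolute value over root F). The script was tested on simulated data. Folds against groups without counts use a floor of 3 counts per library, which covers counting error only. Alternatives were RLE scaling, no filter, DESeq2 1.42.0, limma-voom 3.58.1, a replicate block, terms for library number and Ddx3y, fewer libraries, and each library left out.

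The libraries, the 39 gene lists and the naming rule were chosen with earlier results of these data known. The rule names Cxcr4 and Ctse, then on each side the 12 genes of lowest unadjusted p with a mean of at least 1 CPM, no overlap and an established symbol outside the list of sex-linked genes, and from each list the 4 members of highest level. Of the 25 genes named outside the lists, 21 were in the RefSeq promoter table. Replicate numbers come from the titles. Deviations from the group means of same-numbered libraries correlated at 0.375, 0.189 and 0.346 between +/1013 and WT over 8096 genes. Between 1013/1013 and WT they correlated at -0.228 and -0.11. The main fit had no replicate term, so its values between +/1013 and WT leave out any pairing of same-numbered libraries. A replicate block was run only as an alternative.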

Additional observations from a re-analysis of the deposited data

Results flagged for a closer look

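Rcor3 was picked out because its 1013/1013 difference in MPP3 departed from that in the other subsets by a log2 difference of 4.17 in edgeR's interaction test. Over the alternatives and left-out libraries the difference was 3.89 to 4.98 and the adjusted p 1.95e-06 to 0.39, with the highest p without MPP3 WT 3.

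A further 4 named genes were picked out because every 1013/1013 library lay on one side of every WT library in MPP3 and on the opposite side in another subset. For these the difference between subsets was not tested by itself. Tmtc1 averaged 0.919 ± 0.662 CPM in 1013/1013 MPP4 and 3.65 ± 1.79 CPM in WT MPP4 (SD, n = 2 and 3 here and in the other pairs), a difference of -2.73 CPM. Jcad averaged 0.0177 ± 0.0250 CPM in 1013/1013 MPP2 and 5.93 ± 1.04 CPM in WT MPP2, a difference of -5.91 CPM. Gpatch8 averaged 0.984 ± 0.392 CPM in 1013/1013 MPP2 and 7.73 ± 5.14 CPM in WT MPP2, a difference of -6.75 CPM, and 0.980 ± 0.209 CPM in 1013/1013 MPP4 and 5.17 ± 3.02 CPM in WT MPP4, a difference of -4.19 CPM. Rab34 averaged 5.56 ± 1.28 CPM in 1013/1013 MPP4 and 2.80 ± 0.833 CPM in WT MPP4, a difference of 2.76 CPM. All 4 genes averaged under 10 CPM in each of these groups.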

How the results depend on the processing

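Between MPP3 1013/1013 and WT, edgeR called 0 genes with RLE scaling, no filter, each added term, only the MPP3 libraries, only the compared groups, or without the 8 libraries whose number is a multiple of 3, the last chosen after seeing the data. DESeq2 called 269 and limma-voom 23. With each library left out the count was 0 to 13, with 13 without 1013/1013 1, Haus6 among them, and 1 without WT 1. Between +/1013 and WT, DESeq2 called 194 and limma-voom 17, and left-out libraries gave 0 to 1. Between 1013/1013 and +/1013, DESeq2 called 191 and limma-voom 15, and left-out libraries gave 0 to 14, with 14 without 1013/1013 1. The 1 gene of the interaction became 0 with no filter and with each term for library number or Ddx3y, 307 in DESeq2, 15 in limma-voom and 54 without the 8 libraries. With each library left out it was 0 to 43, with 43 without MPP4 1013/1013 1, 37 without MPP2 1013/1013 2 and 9 without MPP3 1013/1013 1. Fits without a 1013/1013 library leave 1 library in that group, which is assumed to vary like the other groups, so these counts rest on the spread of other groups. The causes were not tested.

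With a replicate block the counts were 0 for all 3 MPP3 comparisons and 0 for the interaction, where Rcor3 had an adjusted p of 0.112.

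Of the named genes, the difference of Cxcr4 changed sign, to -0.0943 without WT 1 against 1.15 without WT 3, and the other genes kept theirs under all alternatives run. The median SE was 0.318 for genes of at least 100 CPM and 2.78 for genes under 1 CPM. Small differences in weakly expressed genes were thus not detectable at this depth and number of libraries. In simulated counts with the fitted trended dispersion, changes were planted in genes averaging at least 10 CPM. The simulation left out spread particular to single genes and the library features described above, so recovery in the real libraries may be lower. The edgeR test recovered 2.99% of 2-fold, 34.3% of 4-fold and 75.8% of 8-fold changes. In the real libraries Ctse did not pass, with a ratio of means of 13.2 between 1013/1013 and WT. The 0 calls between 1013/1013 and WT thus do not exclude changes of 2-fold, 4-fold or 8-fold in better expressed genes.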
